A study of Homo sapiens with 14 samples.

Results

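A549 cells treated with PF-06873600 were compared directly with A549 cells treated with palbociclib together with indisulam. Growth was not measured by these libraries. A549 is an established human lung cancer cell line. The comparison rests on 4 of the 14 RNA sequencing libraries of the series: 2 libraries of cells that received 0.5 µM PF-06873600 for 7 days and 2 libraries of cells that received 2 µM palbociclib and 0.5 µM indisulam for 10 days. These were the libraries labelled with either treatment in this line. All were grown in the same medium and carried no other genetic change named in the labels. The remaining A549 libraries, 2 each of untreated cells, of 10 days with 2 µM palbociclib alone and of 10 days with 0.5 µM indisulam alone, gave the background level of every gene, and all 10 libraries entered the same model. The drug and the length of treatment differ together between the compared groups and cannot be told apart. The series describes the libraries as technical duplicates, so the p-values measure only the spread between these libraries, which may be technical.

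CDK4 and CDK6 with D-type cyclins, and CDK2 with E-type cyclins, phosphorylate RB and free the E2F transcription factors, which switch on the genes of DNA replication. Palbociclib inhibits CDK4 and CDK6. PF-06873600 was described as an inhibitor of CDK2, CDK4 and CDK6. Indisulam is an aryl sulfonamide that joins the splicing factor RBM39 to the DCAF15 ubiquitin ligase, after which RBM39 is degraded. Cells that leave the cycle for good, called senescent, characteristically lose replication and mitosis transcripts and lamin B1, and gain p21, matrix proteins and secreted cytokines.

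Counts on genes totalled 13060374 and 16173663 in the PF-06873600 libraries and 14103047 and 15537212 in the combination libraries, within the range of 13060374 to 16388606 over the 10 A549 libraries. Levels are given as CPM (the count of a gene scaled to a common library total of counts on genes), always with replicate 1 first. A floor of 3 counts was set for each library, which corresponds to between 0.183 and 0.230 CPM. The epithelial markers differed widely in level. KRT8 was at 5631 and 5680.0 CPM with PF-06873600 and 5109 and 4899 CPM with the combination. CDH1 was at 93.1 and 98.1 CPM against 130 and 126 CPM, and EPCAM at 8.35 and 7.73 CPM against 15.1 and 13.9 CPM. The alveolar type II markers were mixed: the surfactant gene SFTPB had 0 counts in every library and SFTPC at most 6, NAPSA had 24 and 28 counts with PF-06873600 and 52 and 50 with the combination, and the lipid transporter ABCA3 was at 123 and 130.5 CPM and 88.3 and 83.4 CPM. Of the leukocyte markers, CD3E and MS4A1 had 0 counts in all 10 libraries, while CD14 had 88 and 111 counts with PF-06873600 and 97 and 103 with the combination and LYZ had 64 and 68 against 49 and 46. The endothelial marker CLDN5 had 0 counts, VWF 1 and 3 with PF-06873600 against 15 and 4, and TEK 2 and 10 against 10 and 10. CDH5 had 0 and 2 against 3 and 4. PECAM1 went the other way, with 6 and 4 counts against 1 and 1, and 22 and 24 in untreated cells. KDR had 6 and 4 against 4 and 2.

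The compared groups differed over much of the transcriptome. Of 15780 genes tested with edgeR's quasi-likelihood test and Benjamini-Hochberg adjustment, 3344 were higher and 4830 were lower with PF-06873600 than with the combination at an adjusted p below 0.05. Together these calls cover 51.8% of the genes tested, with 21.2% higher and 30.6% lower. At least 2-fold differences among the called genes numbered 713 higher and 1413 lower, and at least 4-fold differences 158 and 428. The median difference over all genes was -0.096 on the log2 scale. When libraries were scaled by TMM factors (trimmed mean of M-values) instead of total counts, all differences moved up by 0.093 and the calls were 4166 higher and 3871 lower, so the share of calls that were higher moved from 40.9% to 51.8%. All 3344 higher genes and 3871 of the 4830 lower genes were called with either scaling.

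**Figure D1:**
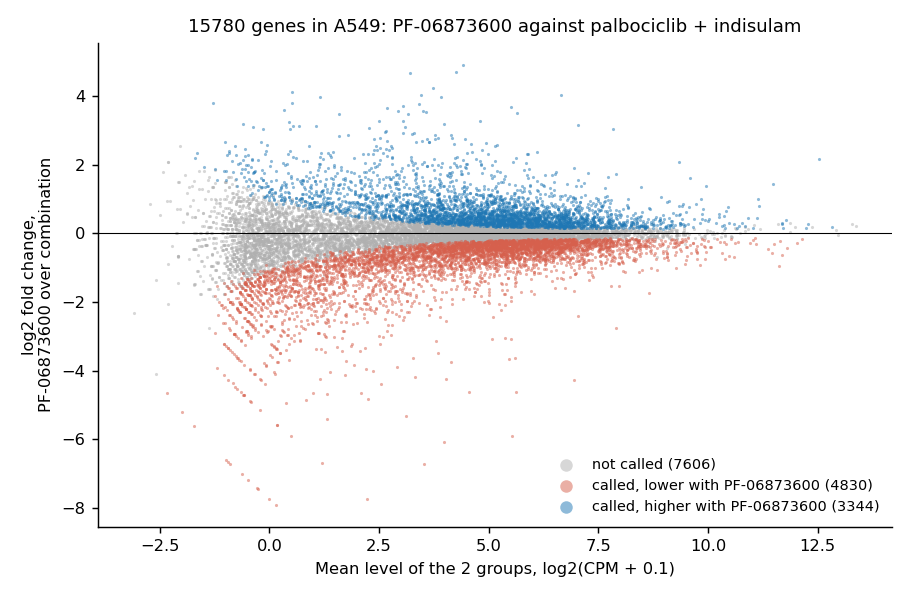
Each point is 1 of the 15780 genes tested. The x axis is the mean level of the compared groups as log2(CPM + 0.1), the y axis the log2 fold change of PF-06873600 over the combination, and colour marks the 3344 genes called higher, the 4830 called lower and the 7606 not called. The largest differences were negative, that is, genes higher with the combination, and many of these had low levels.

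Genes of DNA replication formed the clearest block. All 50 members of the list of S phase and replication genes were called, and all were higher with PF-06873600, against 21.2% of all genes. The median difference was 1.85 on the log2 scale, and 42 members differed at least 2-fold. Relative to untreated cells the median of the list was 0.78 with PF-06873600, with 43 members called above and 2 called below untreated, where 28.5% of all genes were above and 27.8% below. With the combination the median was -1.05, with no member called above and 45 called below untreated, where 35.1% of all genes were above and 30% below. The untreated libraries are shared by these last comparisons, which are therefore given side by side only. In bulk RNA, fewer cells in a phase and less transcript per cell cannot be told apart. The levels of the 50 genes summed to 2906 and 2935 CPM with PF-06873600, 934 and 908 CPM with the combination and 1802 and 1784 CPM in untreated cells.

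RRM2 (chr2:10120698-10211725, GRCh38), the small subunit of the ribonucleotide reductase that makes deoxynucleotides, was at 189.7 and 189 CPM with PF-06873600, 11.7 and 11.4 CPM with the combination and 49.5 and 53.4 CPM in untreated cells. The groups did not overlap, as was the case for 79.9% of all genes tested. The untreated libraries lay between the groups. The log2 difference was 4.03 ± 0.076 (SE), with an adjusted p of 2e-13. CDC45 (chr22:19479457-19520612), a subunit of the replicative helicase, was at 20.5 and 20.9 CPM with PF-06873600, 1.21 and 1.29 CPM with the combination and 10.8 and 12.9 CPM untreated, a log2 difference of 4.04 ± 0.18 (adjusted p = 4.7e-10). CLSPN, the checkpoint mediator claspin, was at 28.9 and 27.8 CPM against 1.99 and 1.61 CPM, with 7.41 and 8.53 CPM in untreated cells. In each of these genes the PF-06873600 libraries were above and the combination libraries below every untreated library. GINS2, a subunit of the GINS complex of the helicase, had a log2 difference of 3.54, and the origin licensing factor CDC6 of 3.52. The smallest difference of the list was that of POLD1, the catalytic subunit of DNA polymerase delta, at 0.50.

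Among the genes higher with PF-06873600, FAM111B (chr11:59107185-59127412), a protease, had the highest log2 difference of those with at least 10 CPM in that group. Its difference was 4.92 ± 0.15 (adjusted p = 1.1e-11), with 42.5 and 39.6 CPM against 1.56 and 1.16 CPM. ASF1B, a histone chaperone, was at 36.9 and 36.7 CPM with PF-06873600 and 1.49 and 1.35 CPM with the combination, a log2 difference of 4.69 ± 0.18. PCLAF, a PCNA-binding protein, was at 23 and 26.8 CPM against 1.13 and 1.48 CPM. TFF1, a secreted trefoil peptide of mucus, was also among the 12 leading genes, at 13.9 and 16.3 CPM with PF-06873600 and 1.13 and 1.16 CPM with the combination. TFF1 was 5.44 and 5.47 CPM in untreated cells.

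The promoters of the replication genes were searched for the E2F motif, TTTNNCGC on either strand, in the 250 bases before the start of each gene (RefSeq, GRCh38.p14). It was present in 16 of the 42 promoters matched by symbol (38.1%), and in 8.71% of the 11517 tested genes with a promoter. Windows of 60 bases are shown for 4 members with large differences that hold the motif, because they show the letters that the replication genes carry. They run 5′ to 3′ on the strand of the gene, with the motif in capitals. The choice did not cover every chromosome.
GINS2 (chr16:85688955-85689014, minus strand): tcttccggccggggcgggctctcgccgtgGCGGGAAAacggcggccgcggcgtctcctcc
DTL (chr1:212035688-212035747, plus strand): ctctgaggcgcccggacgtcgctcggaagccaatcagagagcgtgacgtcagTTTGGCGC
POLE2 (chr14:49688262-49688321, minus strand): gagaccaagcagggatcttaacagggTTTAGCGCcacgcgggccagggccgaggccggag
CDT1 (chr16:88803728-88803787, plus strand): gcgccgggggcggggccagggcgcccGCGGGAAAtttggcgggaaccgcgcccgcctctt
RRM2, CDC45 and CLSPN had larger differences but gave no window. Either no promoter was matched for them or these letters were absent from its 250 bases, which says nothing about the factor.

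Genes of mitosis followed the replication genes. Of 49 members tested, 48 were higher with PF-06873600, against 21.2% of all genes. None was lower, against 30.6% of all genes, and the median log2 difference was 1.44. Both treatments put most of the list below untreated cells. The median was -0.64 for PF-06873600, with 38 called below, against 27.8% of all genes. For the combination it was -2.14, with 49 called below, against 30% of all genes. CDK1, the mitotic kinase, was at 50.9 and 54.3 CPM with PF-06873600, 10.4 and 6.82 CPM with the combination and 53.2 and 60.9 CPM untreated. The PF-06873600 libraries were close to untreated, and the combination libraries were far below both. MKI67, the proliferation marker Ki-67, was at 84.5 and 95.8 CPM, 29.99 and 29.3 CPM and 172 and 182 CPM in the same order. Here both treatments were below untreated, and PF-06873600 was above the combination by 1.61 ± 0.088 (adjusted p = 3.5e-09). CCNB1, cyclin B1, was at 61.9 and 60.8 CPM with PF-06873600, 28.4 and 29.8 CPM with the combination and 81.8 and 90.7 CPM untreated. The member that did not pass was CENPE, a kinetochore motor, at 0.11.

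The cell cycle homology region motif, TTTGAA on either strand, was present in 22 of the 41 promoters of the mitosis list that matched (53.7%), in 2.38% of those of the replication list and in 8.67% of all promoters of tested genes. The E2F motif was present in 7.32% of the mitosis promoters. The CCAAT box, CCAAT on either strand, was in 75.6% of the mitosis promoters, 57.1% of the replication promoters and 34.7% of all. The E2F and cell cycle homology region motifs both begin with TTT, but a single match cannot be both. Shown with the motif in capitals are 4 mitosis genes with some of the larger differences that hold TTTGAA or its reverse complement. They are set beside the replication genes, and here too the choice did not cover every chromosome.
CDK1 (chr10:60778143-60778202, plus strand): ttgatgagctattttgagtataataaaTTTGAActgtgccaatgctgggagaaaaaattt
SPC25 (chr2:168890621-168890680, minus strand): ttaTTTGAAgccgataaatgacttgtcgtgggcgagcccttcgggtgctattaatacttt
CDC20 (chr1:43358889-43358948, plus strand): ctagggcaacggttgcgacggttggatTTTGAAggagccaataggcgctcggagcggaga
TOP2A (chr17:40418015-40418074, minus strand): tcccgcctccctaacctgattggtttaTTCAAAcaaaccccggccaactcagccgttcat
A match describes the letters of the window and is not a measured binding site.

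**Figure D2:**
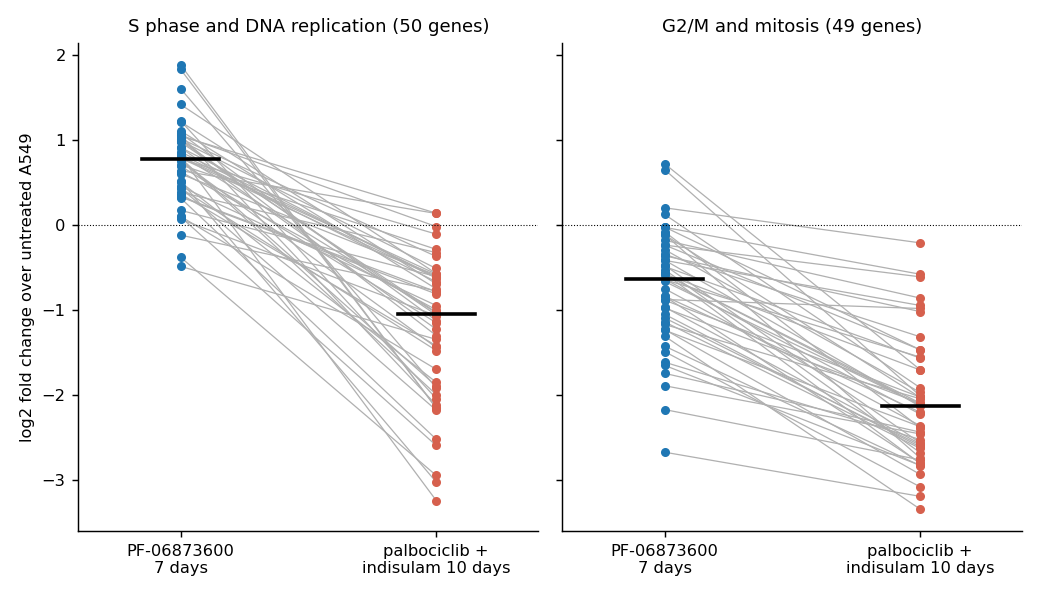
Each line is a gene of the replication list (left, 50 genes) or the mitosis list (right, 49 genes), and joins its log2 fold change over untreated cells with PF-06873600 (blue) to that with the combination (red). Black bars are medians. The replication medians lie on opposite sides of the dotted zero line, at 0.78 and -1.05, and both mitosis medians lie below it, at -0.64 and -2.14.

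Among the 37 tested CDKs, cyclins, CDK inhibitors, RB and E2F genes, 20 were higher and 4 were lower with PF-06873600. The shares over all genes were 21.2% higher and 30.6% lower. The transcripts of the kinases that the drugs inhibit were all higher. CDK2 (chr12:55966781-55972789) was at 52.5 and 50.6 CPM with PF-06873600, 19.7 and 19.9 CPM with the combination and 25.9 and 23.8 CPM untreated, a log2 difference of 1.38 ± 0.081 (adjusted p = 7.4e-09). CDK4 was at 207 and 215 CPM against 148 and 136 CPM, and CDK6 at 80.7 and 80.7 CPM against 64.7 and 65.1 CPM. The differences were 0.57 ± 0.061 for CDK4 and 0.31 ± 0.087 for CDK6 on the log2 scale, and CDK6 was no longer called in the fit without combination replicate 1. The E-type cyclins, partners of CDK2, were both higher. CCNE2 was at 19.1 and 16 CPM with PF-06873600, 0.922 and 0.451 CPM with the combination and 2.38 and 2.67 CPM untreated, and its difference of 4.68 ± 0.26 was the third highest among the genes with at least 10 CPM in the higher group. CCNE2 overlaps INTS8 and NDUFAF6. CCNE1 was at 52.1 and 52.3 CPM against 26.9 and 25.5 CPM, with 10.3 and 11.3 CPM untreated, so both treatments lay above untreated cells. CCND1, cyclin D1, was at 1204 and 1235 CPM with PF-06873600 and 1474 and 1522 CPM with the combination, lower with PF-06873600 by a log2 difference of -0.30 ± 0.052 (adjusted p = 0.00028), and both were above the 429 and 406 CPM of untreated cells.

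Transcription factors downstream of RB went the same way as the replication genes. E2F1 was at 25.5 and 25 CPM with PF-06873600, 8.15 and 7.85 CPM with the combination and 14.2 and 14.3 CPM untreated. E2F2 was at 10.2 and 10.02 CPM against 0.993 and 1.09 CPM. MYBL2, which drives mitotic genes with the MuvB complex, was at 83.9 and 86 CPM against 6.88 and 6.31 CPM, a log2 difference of 3.69 ± 0.087 (adjusted p = 9.2e-13). RB1 itself was higher by 0.46 ± 0.092. Both CIP/KIP inhibitor genes described here were lower, and CDKN1C, which was also tested, is not described. CDKN1A, which encodes p21, was at 504 and 523 CPM with PF-06873600 and 683 and 666 CPM with the combination, against 39.2 and 43.7 CPM untreated. Indisulam alone gave 377 and 383 CPM and palbociclib alone 56 and 54.3 CPM. The large rise over untreated cells was common to PF-06873600 and the combination, and the difference between them was -0.39 ± 0.056 (adjusted p = 4.7e-05). CDKN1B, which encodes p27, was at 18.9 and 18.3 CPM against 24.7 and 25.2 CPM, and both groups lay below the 63.3 and 59.2 CPM of untreated cells. CDKN2A and CDKN2B had 0 counts in all 10 libraries, so neither p16 nor p15 transcript could be compared.

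**Figure D3:**
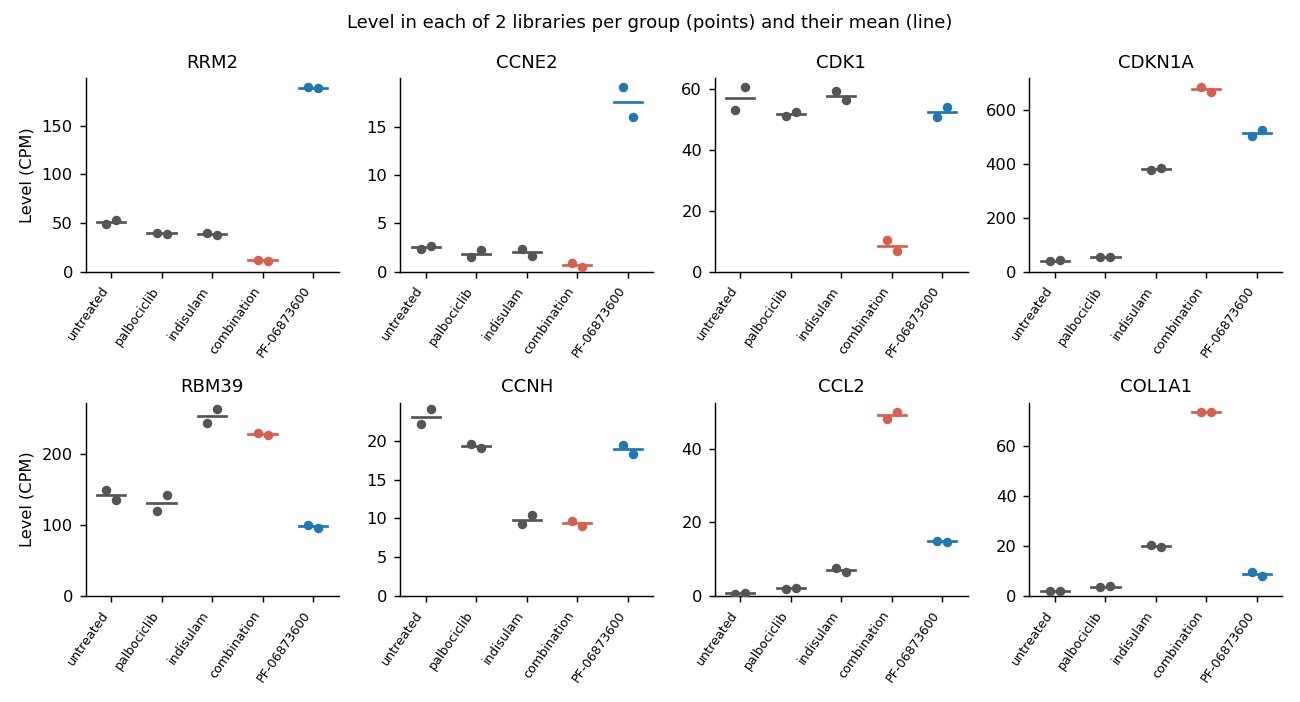
Each panel shows the level of a gene in CPM on a linear axis from 0, with 1 point for each of the 2 libraries of a group and a line at their mean, for untreated cells, palbociclib, indisulam, the combination (red) and PF-06873600 (blue). RRM2 and CCNE2 were highest with PF-06873600 and lowest with the combination, CDK1 was low only in the combination libraries of these 10, CCNH was low with indisulam and with the combination, and CCL2 and COL1A1 were highest with the combination.

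Of 18 kinases that activate CDKs or act in transcription, with their cyclins, 3 were higher and 7 were lower with PF-06873600 (3 and 4 with TMM scaling), which is near the background of 21.2% and 30.6%, and without PF-06873600 replicate 2 the calls were 1 and 3. Without combination replicate 2 they were 1 and 4, and without PF-06873600 replicate 1 they were 3 and 4. CCNH (chr5:87318416-87412930), the cyclin of the CDK-activating kinase that phosphorylates CDK2 among others, was at 19.4 and 18.3 CPM with PF-06873600, 9.71 and 9.07 CPM with the combination and 22.1 and 24.1 CPM untreated. The indisulam libraries were at 9.33 and 10.4 CPM and the palbociclib libraries at 19.5 and 19 CPM, so the libraries of the groups that received indisulam were lower than all others. Its log2 difference was 1.01 ± 0.11 (adjusted p = 3.3e-06). The gene overlaps RASA1 on the other strand. CDK7, the kinase partner, had a difference of -0.14 ± 0.10 (adjusted p = 0.27) and MNAT1, the assembly factor, -0.099 ± 0.11 (adjusted p = 0.47), and neither passed the test.

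RBM39 (chr20:35701347-35742312), the splicing factor that indisulam marks for degradation, was at 99.7 and 96.1 CPM with PF-06873600 and 229 and 227 CPM with the combination. The levels were 244 and 263 CPM with indisulam alone, 120.1 and 142 CPM with palbociclib alone and 149.5 and 135 CPM in untreated cells. The indisulam and combination libraries were above, and the PF-06873600 libraries below, every untreated library. The log2 difference between the compared groups was -1.22 ± 0.079 (adjusted p = 1.9e-08). These are transcript levels, and the protein was not measured by these libraries. DCAF15, the ligase receptor, did not pass (adjusted p = 0.61). Of the 7 genes of RBM39 and its ligase, RBM39 and CUL4B were lower (28.6%) and RBX1 was higher (14.3%). These shares are near the 30.6% and 21.2% of all genes. The call of RBX1 was lost in fits without combination replicate 1, combination replicate 2 or PF-06873600 replicate 1.

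Splicing factors were split. Of 43 SR, U2AF and hnRNP genes tested, 10 were higher and 13 lower with PF-06873600, near the background shares of 21.2% and 30.6%, and TMM scaling turned the balance to 15 higher and 7 lower and the sign of the median from -0.070 to 0.023. Leaving out any 1 of the 4 compared libraries gave 7 lower. SRSF2, an SR protein, was higher at 165 and 154 CPM against 109 and 104 CPM. The kinases CLK1 (-0.89 ± 0.11) and CLK4 (-0.96 ± 0.12), which phosphorylate SR proteins, were lower, as was PTBP2, a repressor of neuronal exons, with 13.6 and 14 CPM against 28.6 and 26.6 CPM.

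Targets of p53 rose over untreated cells with either treatment, with 30 of 32 called above untreated in each comparison, against 28.5% of all genes with PF-06873600 and 35.1% with the combination. The medians over untreated were 1.43 with PF-06873600 and 1.37 with the combination. Between the treatments, 5 members were higher and 14 lower with PF-06873600, beside 21.2% and 30.6% of all genes, and 7 and 9 with TMM scaling. Without combination replicate 2, or without PF-06873600 replicate 2, the calls were 3 and 9. CCNG1, cyclin G1, was lower at 178 and 181 CPM against 331 and 318 CPM, and FDXR, ferredoxin reductase, was higher at 72 and 70.6 CPM against 41.7 and 36.8 CPM. GDF15, a stress cytokine and p53 target, was at 76 and 79.5 CPM and 85.8 and 78.3 CPM and did not pass (adjusted p = 0.52). With indisulam alone, 31 of the 32 p53 targets were called above untreated, against 28.0% of all genes. Their median over untreated was 1.27 with indisulam alone and 0.098 with palbociclib alone.

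The antiapoptotic genes BCL2L1, BCL2L2 and BCL2, whose proteins the BH3 mimetic drug navitoclax inhibits, were not called between the treatments or were scarce. BCL2L1, which encodes BCL-xL, was at 369 and 376 CPM with PF-06873600 and 378 and 367 CPM with the combination, a log2 difference of 0.0019 ± 0.051 (adjusted p = 0.98). BCL2L2, which encodes BCL-W, had a difference of -0.19 ± 0.080 (adjusted p = 0.058). BCL2 had few counts, at 1.30 and 0.866 CPM and 0.142 and 0.451 CPM, and its adjusted p of 0.036 was lost in fits without combination replicate 1, PF-06873600 replicate 1 or PF-06873600 replicate 2. Of 27 genes of this family and of the death receptors, 7 were higher and 10 lower, near the background of 21.2% and 30.6%, and the 7 fell to between 0 and 4 when any compared library was left out, to 0 without PF-06873600 replicate 2. The lower members included BCL2L11, which encodes the proapoptotic protein BIM, at 7.96 and 9.40 CPM against 15.8 and 16.3 CPM.

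Matrix genes were higher with the combination. Of 48 matrix proteins and integrins tested, 39 were lower with PF-06873600, against 30.6% of all genes, and 4 were higher. Without combination replicate 2 the higher members numbered 2, and without any of the other 3 compared libraries 1. The median log2 difference was -0.76, and 20 members were at least 2-fold lower. The list was above untreated cells with either treatment, with medians of 0.93 for PF-06873600 and 1.55 for the combination. COL1A1 (chr17:50184101-50201632), the alpha 1 chain of type I collagen, was at 9.72 and 8.10 CPM with PF-06873600, 73.7 and 73.5 CPM with the combination and 1.90 and 1.93 CPM untreated. The difference was -3.05 ± 0.099 (adjusted p = 1.8e-11). COL5A1, a chain of type V collagen, was at 9.42 and 9.71 CPM against 79 and 83.3 CPM, and ITGA11, a collagen-binding integrin, at 3.29 and 4.27 CPM against 93 and 95 CPM. ITGA11 was 5.64 and 5.47 CPM in untreated cells, so PF-06873600 lay below and the combination above untreated. ITGA2, another collagen-binding integrin, went the other way, at 67.4 and 67.1 CPM against 37 and 38.9 CPM.

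Markers of fibroblasts moved partly with these genes. COL1A1 is itself on that marker list, LUM had 7 and 2 counts with PF-06873600 and 137 and 127 with the combination, and THY1 had 21 and 24 against 61 and 84. The other defining markers were at or near 0 in the compared libraries: COL1A2 had at most 3 counts, COL3A1 at most 7, DCN at most 5, PDGFRA at most 4 and PDGFRB at most 8. Of the 8 markers, 3 passed the filter on low counts, LUM through the combination libraries alone, and the part of such cells in the matrix values was not tested.

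Proteases and their inhibitors followed the matrix genes, with 14 of 20 tested lower and 3 higher with PF-06873600, beside 30.6% and 21.2% of all genes (1 higher without combination replicate 1 or PF-06873600 replicate 1). TIMP3, a tissue inhibitor of metalloproteinases, was lower at 2.37 and 2.78 CPM against 13.5 and 14.5 CPM, a log2 difference of -2.43 ± 0.18 (adjusted p = 6.1e-08). MMP7, matrilysin, was higher at 589 and 597 CPM against 420.2 and 396 CPM, with 107 and 113 CPM in untreated cells.

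Of 21 chemokines and interleukins tested, 15 were lower with PF-06873600 and 1, CXCL5, was higher, where the shares over all genes were 30.6% and 21.2%. The median log2 difference was -0.80. CCL2, which attracts monocytes, was at 15.1 and 14.8 CPM with PF-06873600, 48.1 and 50.01 CPM with the combination and 0.612 and 0.867 CPM untreated, a difference of -1.72 ± 0.098 (adjusted p = 5.6e-09). IL32 was at 4.98 and 4.20 CPM against 19.6 and 19.3 CPM. The most studied secreted cytokines of senescence differed less. IL6 was at 6.97 and 6.37 CPM and 7.09 and 7.40 CPM, up from 0.544 and 0.533 CPM in untreated cells, and did not pass (adjusted p = 0.56). CXCL8, interleukin 8, was at 73.1 and 75.7 CPM and 90.3 and 86.6 CPM, and its adjusted p of 0.0055 was lost in the fits without combination replicate 1 or PF-06873600 replicate 1. CXCL5, a neutrophil chemokine, was higher with PF-06873600, at 515 and 509 CPM against 308 and 318 CPM.

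The NF-kB subunits and feedback targets had 9 of 19 lower and 1 higher, beside 30.6% and 21.2% of all genes (3 higher with TMM scaling or without either untreated library, 0 without either combination library or PF-06873600 replicate 2), led by TNFAIP3, the feedback inhibitor A20, at 4.06 and 4.20 CPM against 16.7 and 17 CPM. Interferon-stimulated genes had 23 of 44 lower and 4 higher, against 30.6% and 21.2% of all genes. IFI27 was lower, at 3.52 and 3.52 CPM against 11.1 and 11.5 CPM, and so was SAMD9L, at 28.2 and 27.7 CPM against 54.3 and 56.7 CPM. OAS3, a sensor of double-stranded RNA, was higher at 146 and 148 CPM against 66.3 and 68.4 CPM. Its neighbour OAS1 was higher by 0.47 ± 0.061. Of 17 genes of HLA class I presentation, 7 were lower (41.2%) and 2 higher (11.8%) against the same shares (6 and 5 with TMM scaling, 4 higher without either untreated library). The heavy chains HLA-B (-0.85 ± 0.095) and HLA-C (-0.71 ± 0.087) were lower on the log2 scale. The genes of these heavy chains are related in sequence, so reads may be split between them and the single values are uncertain.

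The senescence lists that the study collected from earlier publications lay mostly on the side of the combination. In the order lower and higher with PF-06873600, the counts were 22 and 5 of 41 tested in the Casella list, 20 and 4 of 34 in the Purcell list, 17 and 3 of 30 in the Hernandez senescence list, 14 and 2 of 21 in the Hernandez secretory list, and 41 and 10 of 71 in the Fridman list, where 30.6% and 21.2% of all genes were called. The medians ran from -0.65 (Purcell) to -0.32 (Hernandez senescence), beside -0.096 for all genes. The lists overlap with the matrix and chemokine lists above. Over untreated cells the medians with PF-06873600 were all above 0, from 0.19 to 1.35, and those with the combination ran from 0.50 to 2.07. Without PF-06873600 replicate 2 the Purcell counts were 13 lower and 2 higher, and higher counts elsewhere fell to 3 (Casella, without either combination library or PF-06873600 replicate 2), 1 (Hernandez secretory, without replicate 1 of either treatment) and 4 to 6 (Fridman, without either combination library or PF-06873600 replicate 1). Without combination replicate 2 the higher Purcell genes also numbered 2. IGFBP7, a secreted binding protein, was at 27.1 and 26.5 CPM against 76.4 and 67.8 CPM, and the inhibitor TIMP2 at 299 and 296 CPM against 605 and 636 CPM. Complement C3 was higher with PF-06873600, at 852 and 868 CPM against 499 and 499 CPM, with 195 and 164 CPM in untreated cells. MLKL, the effector of necroptosis, was also higher, at 61.3 and 60.4 CPM against 30.3 and 29 CPM.

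**Figure D4:**
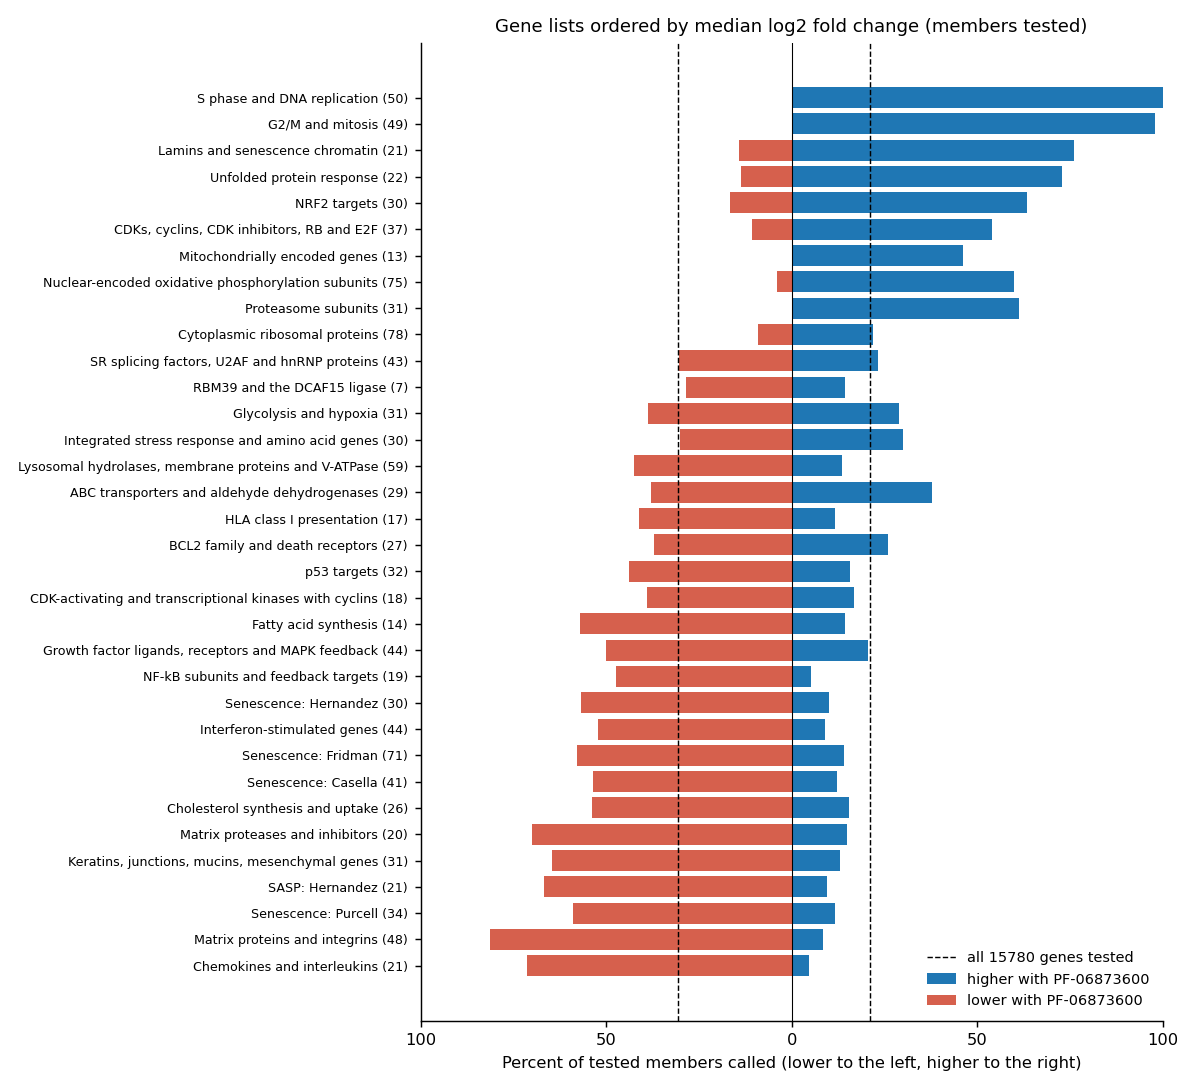
Bars show, for each gene list, the percent of tested members called higher (blue, to the right) and lower (red, to the left) with PF-06873600 than with the combination. Lists are ordered by median log2 fold change, numbers in brackets are members tested, and dashed lines mark 21.2% and 30.6%, the shares among all 15780 genes. The replication and mitosis lists had blue bars of 100% and 98% and no red bar, and the matrix and chemokine lists had the longest red bars, 81.2% and 71.4%.

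Nuclear lamina and chromatin genes had 16 of 21 higher and 3 lower with PF-06873600, against 21.2% and 30.6% of all genes (1 lower without PF-06873600 replicate 2). LMNB1, lamin B1, whose loss marks senescent cells, was at 36.9 and 32.9 CPM with PF-06873600, 9.64 and 8.56 CPM with the combination and 48.3 and 47.7 CPM untreated. Both treatments lay below untreated cells, and the combination the more so, with a difference of 1.94 ± 0.10 (adjusted p = 2.7e-09). EZH2, the histone methyltransferase of the Polycomb complex, was at 17.3 and 19 CPM against 7.80 and 6.05 CPM, and DNMT1, the maintenance DNA methyltransferase, at 79 and 78 CPM against 28.9 and 31 CPM. HMGA2, an architectural chromatin protein, was lower at 31.2 and 31.8 CPM against 66.8 and 69.3 CPM.

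A list of keratins, junction proteins and mucins, which also holds the mesenchymal genes VIM, ZEB1, SNAI2 and CDH2, had 20 of 31 lower and 4 higher, against 30.6% and 21.2% of all genes. Its leading lower member was SNAI2, a repressor of epithelial genes, at 1.68 and 2.04 CPM with PF-06873600 and 8.30 and 9.01 CPM with the combination. DSP, desmoplakin, was lower at 102 and 101 CPM against 224 and 219 CPM. CLDN4 was lower at 4.59 and 4.76 CPM against 15.7 and 13.3 CPM, whereas CLDN2, a claudin of leaky epithelia, was higher at 1210.1 and 1228 CPM against 613 and 606 CPM. The gel-forming mucins of the airway were higher with PF-06873600 but far below untreated cells in both groups. MUC5AC was at 312 and 326 CPM with PF-06873600, 100.2 and 103 CPM with the combination and 3693 and 2576 CPM untreated. MUC5B was at 665 and 732 CPM, 379 and 364 CPM and 3621 and 2488 CPM in the same order. Of the 6 epithelial markers, EPCAM, CDH1 and KRT7 were lower and KRT18 was higher.

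Growth factor ligands, receptors and feedback genes of the MAPK pathway had 22 of 44 lower (50%) and 9 higher (20.5%), and the share higher was near the 21.2% of all genes, with 30.6% lower. The EGF receptor ligands EREG and AREG were higher. EREG was at 62.7 and 66.7 CPM with PF-06873600, 24 and 23.9 CPM with the combination and 23.8 and 26.3 CPM untreated. AREG was at 53 and 47.2 CPM, 25.2 and 25 CPM and 21.5 and 25.2 CPM. In both genes the combination lay near untreated cells and PF-06873600 above them. HBEGF, another ligand of this receptor, was lower at 9.03 and 10.4 CPM against 15 and 15.5 CPM. MYC was at 199 and 204 CPM against 127 and 126 CPM, with 124 and 107 CPM untreated.

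Targets of NRF2, the regulator of the oxidant response, had 19 of 30 higher and 5 lower, against 21.2% and 30.6% of all genes (3 lower without combination replicate 1 or either PF-06873600 library), with a median of 0.34. ALDH3A1, an aldehyde dehydrogenase, was at 9677 and 9809 CPM with PF-06873600, 2215 and 2148 CPM with the combination and 7362 and 6114 CPM untreated, a difference of 2.16 ± 0.074 (adjusted p = 3.2e-11). AKR1B10, an aldo-keto reductase, was at 4182 and 4180.4 CPM against 1554 and 1555 CPM, and GPX2, a glutathione peroxidase, at 1163 and 1173 CPM against 387 and 372 CPM. HMOX1, heme oxygenase, was lower, at 41.5 and 39.4 CPM against 89.6 and 79.6 CPM. Over untreated cells the median of the list was -0.40 with PF-06873600 and -0.64 with the combination. Among 29 ABC transporters and aldehyde dehydrogenases, 11 were higher (37.9%) and 11 lower (37.9%), beside 21.2% and 30.6% of all genes (12 and 9 with TMM scaling).

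Of 30 genes of the integrated stress response and amino acid supply, 9 were higher and 9 lower (11 and 7 with TMM scaling), near the background of 21.2% and 30.6%. SLC7A11, the cystine transporter, was higher at 287 and 292 CPM against 117 and 115 CPM, with 426 and 503 CPM untreated. ATF3, a stress transcription factor, was lower at 9.57 and 11.7 CPM against 55.8 and 59.5 CPM, with PF-06873600 near the 9.52 and 9.87 CPM of untreated cells. The unfolded protein response had 16 of 22 higher and 3 lower, against 21.2% and 30.6% of all genes, with SDF2L1 at 18.4 and 19.8 CPM against 9.43 and 9.91 CPM. None of the 22 was called above untreated with either treatment. Over all genes, 28.5% were above with PF-06873600 and 35.1% with the combination. Called below untreated were 17 of the 22 with PF-06873600, against 27.8% of all genes, and 21 with the combination, against 30%. The medians over untreated were -0.26 and -0.51 in the same order.

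Of 26 genes of cholesterol synthesis and uptake, 14 were lower and 4 higher with PF-06873600, and 13 and 6 with TMM scaling. Of 14 genes of fatty acid synthesis 8 were lower and 2 higher, and 6 and 3 with TMM scaling, beside 30.6% and 21.2% of all genes (1 higher without replicate 2 of either treatment). INSIG1, the sterol-regulated anchor of SCAP, was at 11.3 and 11.6 CPM against 26.4 and 23.7 CPM, and SCD, the stearoyl-CoA desaturase, at 635 and 654 CPM against 1055 and 1113 CPM. ACACA, acetyl-CoA carboxylase, was higher at 153 and 158 CPM against 98.4 and 92.2 CPM.

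The lysosome list had 25 of 59 lower and 8 higher, beside 30.6% and 21.2% of all genes, and 17 and 11 with TMM scaling. The hydrolases HEXA, GUSB and GALNS were the leading exceptions, at least 2-fold higher with PF-06873600. GUSB, beta-glucuronidase, was at 60.03 and 63.1 CPM with PF-06873600, 20 and 20.9 CPM with the combination and 78.4 and 73.3 CPM untreated, and indisulam alone gave 32.6 and 28.5 CPM. HEXA, the alpha subunit of hexosaminidase A, was at 119 and 120.4 CPM, 54.7 and 50.1 CPM and 133 and 123 CPM, with 56.9 and 52.9 CPM for indisulam alone. GALNS, a sulfatase, was at 26.1 and 27.9 CPM against 9.01 and 7.66 CPM, with 8.50 and 9.71 CPM for indisulam. In each of the 3 genes the libraries of the groups that received indisulam lay below all others. Glycolysis and hypoxia genes had 12 of 31 lower (38.7%) and 9 higher (29%), near the shares of all genes, and the 9 fell to 3 without PF-06873600 replicate 2 and to 4 without combination replicate 2. PFKFB4 was lower at 5.13 and 4.39 CPM against 29.6 and 25.9 CPM.

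Subunits of oxidative phosphorylation encoded in the nucleus had 45 of 75 higher and 3 lower with PF-06873600, against 21.2% and 30.6% of all genes (1 lower without combination replicate 1 or either PF-06873600 library). The median difference was 0.30 on the log2 scale, and 3 members were at least 2-fold higher. ATP5MC1, a subunit of the ATP synthase rotor, was at 120.4 and 118 CPM with PF-06873600, 38.3 and 34.4 CPM with the combination and 89.7 and 97.7 CPM untreated. NDUFS1, a core subunit of complex I, was at 99.8 and 99.5 CPM against 42.8 and 47.7 CPM, with 96.9 and 106 CPM untreated. In both genes the combination lay below untreated cells. The 13 genes encoded in mitochondrial DNA had 6 higher, but 0 without PF-06873600 replicate 1, 1 without combination replicate 1, and 10 without either untreated library or with TMM scaling. Proteasome subunits had 19 of 31 higher and none lower, against the same shares, with PSMC4 at 277 and 287 CPM against 201 and 195 CPM. Cytoplasmic ribosomal proteins had 17 of 78 higher and 7 lower, near the share of all genes for the higher, and these counts depended on the scaling and the libraries: 39 and 2 with TMM scaling, 8 higher without combination replicate 2, 9 higher without PF-06873600 replicate 1, and 30 higher and 12 lower without either untreated library.

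The genes with the largest differences toward the combination were of varied kinds. AMTN, amelotin, a secreted protein of enamel formation, was at 0.230 and 0.185 CPM with PF-06873600 and 23.6 and 21.4 CPM with the combination, and had 0 counts in untreated cells. Each PF-06873600 library held 3 counts, and the ratio of the combination over PF-06873600 from summed counts was 109 (exact 95% interval 49.96 to 299, counting error only). LINC02154, a long noncoding RNA of the Casella list, was at 1.30 and 1.67 CPM against 93 and 87.5 CPM, and TAGLN, the actin-binding protein transgelin, at 12.1 and 12.1 CPM against 238 and 231 CPM. TAGLN overlaps PCSK7 on the other strand. NECTIN3-AS1 was at 0.383 and 0.495 CPM against 31.6 and 30.2 CPM and overlaps NECTIN3, and MUC3A, a membrane mucin, was at 0.536 and 0.309 CPM against 15.7 and 17.7 CPM. FLJ16779 (-4.64 ± 0.15) and NKAIN4 (-3.74 ± 0.14) overlap each other on opposite strands, and it is not stated whether counting used the strand, so their values cannot be taken as separate. Among the called genes, 127 had no PF-06873600 library above 3 counts, of which 81 also had no untreated library above 3, and 23 had no combination library above 3. Such genes passed the filter on low counts only through other groups, which favours the direction they show, so these numbers are a description only.

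Many genes named above overlap another gene on the opposite strand, so reads of the partner may be included where counting ignored strand. These include CDK2 (PMEL), CDK4 (TSPAN31 and MARCHF9), CCND1 (LTO1), CDKN1A (DINOL), CDKN1B (GPR19), BCL2L2 (HOMEZ and PPP1R3E), IL6 (STEAP1B), TIMP3 (SYN3), IGFBP7 (POLR2B), CLDN2 (MORC4 and RIPPLY1), SRSF2 (MFSD11), GALNS (TRAPPC2L), GPX2 (CHURC1) and DCAF15 (PODNL1), beside others that overlap antisense or unnamed transcripts.

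Indisulam alone and palbociclib alone against untreated cells share no library with the comparison of PF-06873600 and the combination. With indisulam alone, 28.0% of genes were called higher and 17.5% lower than in untreated cells. Of the 4830 genes higher with the combination than with PF-06873600, 2503 (51.8%) were also higher with indisulam alone and 308 (6.38%) were lower. The 2503 make up 56.6% of the 4420 genes higher with indisulam. Of the 3344 genes lower with the combination, 1251 (37.4%) were lower with indisulam alone, which is 45.4% of the 2757 genes lower with that drug, and 447 (13.4%) were higher. Across the 15780 genes, which are not independent replicates, the log2 change with indisulam alone and the log2 difference of the combination over PF-06873600 had a Pearson r of 0.49 and a Spearman rho of 0.46.

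With palbociclib alone, 8.3% of genes were called higher and 7.4% lower than untreated. Of the 4830 genes higher with the combination, 457 (9.46%) were higher with palbociclib, which is 34.9% of its 1310, and of the 3344 lower with the combination, 309 (9.24%) were lower with palbociclib, 26.5% of its 1168. In the opposite directions, 364 of the 4830 (7.54%) were lower and 438 of the 3344 (13.1%) were higher with palbociclib, 31.2% and 33.4% of its lists. Pearson's r was 0.047 and Spearman's rho -0.012 across the same genes. The replication genes had a median log2 change over untreated of 0.022 with indisulam alone, where 11 members were called above and 10 below, beside 28.0% and 17.5% of all genes. With palbociclib alone their median was 0.19. The medians of all genes were 0.080 with indisulam and -0.0056 with palbociclib.

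**Figure D5:**
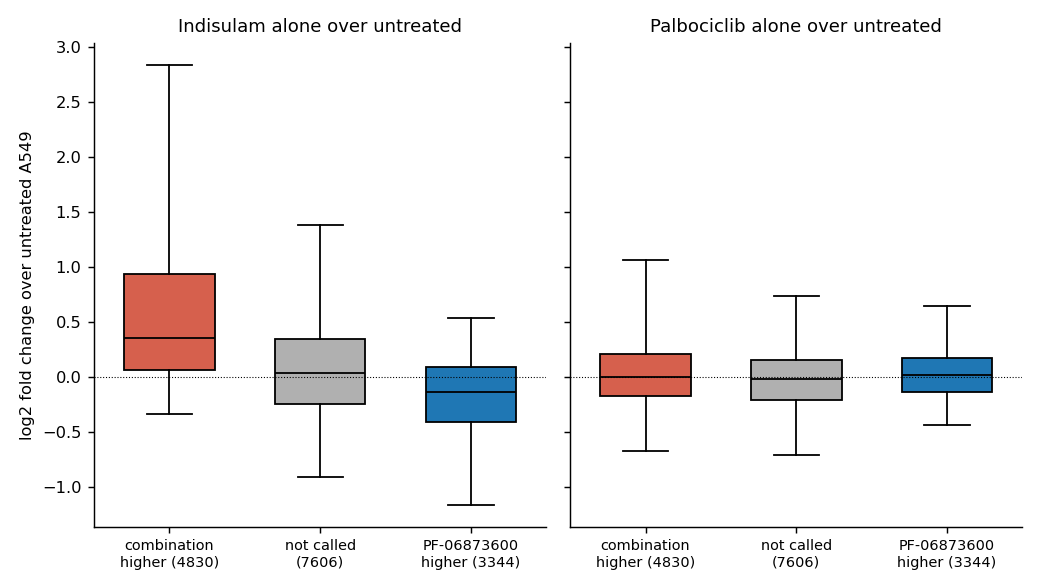
Boxes show the log2 fold change over untreated cells with indisulam alone (left) and palbociclib alone (right), for genes called higher with the combination (red, 4830), not called (grey, 7606) and called higher with PF-06873600 (blue, 3344). Boxes span the quartiles with the median as a line, and whiskers run from the 5th to the 95th percentile. With indisulam the medians were 0.36, 0.035 and -0.13 from left to right, and with palbociclib all 3 medians were within 0.021 of 0.

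Gene structure moved with the direction of the difference. Among protein-coding genes that span less than 5 kb, 21.3% were lower and 31% higher with PF-06873600, and among those of 200 kb or more 44.4% were lower and 15.4% higher. The median log2 difference went from 0.044 in the shortest class to -0.22 in the longest, and the share lower was larger in each longer class. By exons of the canonical transcript, 26% of genes with 2 or 3 exons and 42% of genes with 26 or more were lower. Genes of a single exon did not follow this order, with 33.9% lower and 15.4% higher. The classes also differ in level, with a median of 14.9 CPM in the shortest and 21.5 CPM in the longest span class, and the part of the level in this pattern was not tested. With indisulam alone the median change over untreated went from 0.0045 in the shortest to 0.17 in the longest class. Long noncoding RNAs had 22.1% lower and 12.2% higher of 1691 tested.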

How the data were processed

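Poly(A) RNA was sequenced as stranded single-end libraries. Per the labels, the deposited files hold raw counts of reads per gene, made by the authors with HISAT2 2.2.1 and HTSeq against GRCh38. The annotation release and the strand setting of the counting are not given in the sources used here. Lines for reads without a gene were left out of library sizes and tests. Reads on no gene made up 4.35% and 4.10% of primary reads with PF-06873600, 5.94% and 5.81% with the combination. Symbols, coordinates and exons came from GENCODE 44, where 60370 of 60683 IDs matched.

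The counts were tested with edgeR 4.0.16 (R 4.3.3) by its quasi-likelihood F test, with library size as the total on genes, filterByExpr, 1 model of the 10 A549 libraries, and Benjamini-Hochberg adjustment at 0.05. CPM was computed from the counts. The fold change is the log2 difference of PF-06873600 minus the combination, with its SE. On simulated data for this comparison with 15234 genes tested, 94% of 1.5-fold and 100% of 2-fold and 4-fold changes were recovered, and 4.4% of calls were false. The simulation changed 67, 67 and 66 genes at these folds, none of low level, and gave every gene the same spread. In the data 51.8% of genes were called. Recovery of genes of low level, and so wide a difference between groups, were not simulated.

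Text names genes by 3 rules: the 12 highest and 12 lowest differences where the groups did not overlap and the higher group averaged 10 CPM or more; a fixed set of cell cycle, drug target and secretory genes; and up to 3 members in each direction of each gene list. The smallest, uncalled or promoter-window members, SNAI2, other members of short counts and markers were named after their values were seen. The genes and lists were chosen with earlier results of these data known, and the published senescence lists were collected by the study. Same-numbered libraries did not deviate together (correlation -0.0092 across 15780 genes), so no replicate block was used. Alternatives were TMM, DESeq2 1.42.0, no filter, a mean of at least 50 counts, the 4 compared libraries alone, a replicate block, and each of the 10 libraries left out in turn. Python 3.11.15 with pandas 2.3.3 and scipy 1.17.1 made the summaries.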

Additional observations from a re-analysis of the deposited data

Results flagged for a closer look

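Of 51 leading and fixed genes, 17 were called in opposite directions from untreated cells with the 2 treatments, as were 635 of all 15780 genes (4.02%). The leading genes were chosen for the size of the difference between the treatments, and genes called on opposite sides of the same untreated libraries must differ from each other, so the log2 difference of PF-06873600 minus the combination is given as a description. It was -4.62 for ITGA11 and -1.22 for RBM39, which lay below untreated with PF-06873600 and above with the combination. It was 0.57 for CDK4, 1.38 for CDK2 and 1.66 for E2F1, which lay above untreated with PF-06873600 and below with the combination. The same held for ESCO2 (3.56), ZNF367 (3.66), MYBL2 (3.69), TFF1 (3.72), TCF19 (3.75), CLSPN (3.98), RRM2 (4.03), CDC45 (4.04), PCLAF (4.24), CCNE2 (4.68), ASF1B (4.69) and FAM111B (4.92).

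Among reads outside the gene counts, the share on no annotated gene was 5.88% ± 0.094 (SD, n = 2) with the combination, 4.22% ± 0.18 with PF-06873600 and 4.76% ± 0.49 in untreated cells. The exact two-sided permutation test of the treatments gave p = 0.33, the smallest that 2 against 2 libraries can give.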

How the results depend on the processing

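No gene called as reported was called in the opposite direction under any of the 16 alternatives. The share of calls that were higher with PF-06873600 was 51.8% with TMM scaling, 49.7% with DESeq2, 39.4% without the filter on low counts and 45.3% with a mean of at least 50 counts, and 40.3% to 42.2% when 1 library was left out. DESeq2 called 3109 genes lower. Leaving out 1 library gave 2541 to 3744 genes higher and 3589 to 5512 lower, and the smallest share of the reported calls kept was 74.0%, without PF-06873600 replicate 2. DCAF15 changed sign to 0.0064 with TMM scaling and ranged from -0.20 to 0.011 when 1 library was left out (0.011 without PF-06873600 replicate 1). GDF15 changed sign to 0.017 with TMM scaling. When 1 library was left out, BCL2L1 ranged from -0.020 (without combination replicate 2) to 0.024, with -0.012 without PF-06873600 replicate 2. BCL2L1 was 0.095 with TMM scaling and 0.059 with DESeq2. These are log2 values. None of the 3 genes was called in these fits, and the cause was not tested. Of 204 named genes called as reported, 175 were called under every alternative. With the libraries paired by number as a replicate block, 3301 genes were higher and 4743 lower, and 7974 of the reported calls remained. The numbers carry no stated pairing, and depth limits genes near the floor of 3 counts.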
